A study of Mus musculus with 12 samples.

Results

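The laminin and integrin genes of the mouse were followed in tibialis anterior muscle before birth, at 2 weeks and at 7 weeks of age. Members are the protein-coding genes whose symbol names a laminin alpha, beta or gamma chain or an integrin alpha or beta chain. This rule uses no measured value and gave 37 genes, 11 for laminin chains and 26 for integrin chains, among 55450 genes in the deposited count table. RNA was sequenced from 12 muscles of wild-type (WT) mice, 4 at E18.5 (late gestation, before birth), 4 at 2 weeks and 4 at 7 weeks. Their background is labelled 129Pas, and the paper writes it as 129SvPas. No treatment and no other genotype is in the series. The series was made to follow splicing as this muscle matures after birth, and gene counts are used here. Each library is 1 mouse, and its sex, litter and date of preparation are not among the labels. The RNA came from pieces of whole muscle, so fibres, satellite cells, vessels, nerve, connective tissue and blood are mixed in every library, and fewer cells of a type and less RNA per cell cannot be told apart.

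Laminins are secreted proteins made of 1 alpha, 1 beta and 1 gamma chain, and they assemble into the sheet of the basement membrane that wraps each muscle fibre, vessel and Schwann cell. Integrins are receptors made of 1 alpha and 1 beta chain that span the cell membrane and tie laminins, collagens or fibronectin outside the cell to the cytoskeleton inside it. In skeletal muscle the chain encoded by Lama2 is the main laminin alpha chain around adult fibres, and the product of Itga7, paired with that of Itgb1, is the main laminin receptor of the fibre. Loss of LAMA2 or ITGA7 in humans causes muscle disease. The laminin beta chain of Lamb2 is best known from the neuromuscular junction and from vessels.

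Promoter sequences are shown for 4 members on which the results turn. Lamb1 and Lamb2 encode alternative laminin beta chains that moved in opposite directions, Itga2 had the largest fall over the whole period, and Itgb5 rose in both intervals. The sequences are RefSeq promoters of build GRCm38.p6, each from 250 bases before to 50 after the start of transcription, and capitals mark the E-box CANNTG, the core letters bound by myogenic factors of the MyoD family.
Lamb1, chr12:31265043-31265342, plus strand: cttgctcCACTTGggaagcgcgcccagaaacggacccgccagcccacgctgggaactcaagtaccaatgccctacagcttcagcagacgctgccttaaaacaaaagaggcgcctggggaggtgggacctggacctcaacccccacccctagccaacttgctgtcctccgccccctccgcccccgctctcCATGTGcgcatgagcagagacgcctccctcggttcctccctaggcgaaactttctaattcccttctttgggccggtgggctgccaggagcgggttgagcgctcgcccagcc
Lamb2, chr9:108479612-108479911, plus strand: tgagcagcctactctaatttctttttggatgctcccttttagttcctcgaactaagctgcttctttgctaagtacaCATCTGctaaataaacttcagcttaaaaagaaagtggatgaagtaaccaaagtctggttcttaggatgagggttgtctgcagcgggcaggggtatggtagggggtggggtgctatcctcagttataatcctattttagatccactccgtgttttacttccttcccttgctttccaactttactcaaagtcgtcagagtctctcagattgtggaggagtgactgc
Itga2, chr13:114932051-114932350, minus strand: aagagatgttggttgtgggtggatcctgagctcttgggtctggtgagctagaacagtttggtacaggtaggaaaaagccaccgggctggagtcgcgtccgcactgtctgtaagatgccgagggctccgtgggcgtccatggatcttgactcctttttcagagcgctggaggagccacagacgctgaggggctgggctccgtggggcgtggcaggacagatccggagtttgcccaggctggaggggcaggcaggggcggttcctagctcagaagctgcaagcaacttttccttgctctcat
Itgb5, chr16:33829415-33829714, plus strand: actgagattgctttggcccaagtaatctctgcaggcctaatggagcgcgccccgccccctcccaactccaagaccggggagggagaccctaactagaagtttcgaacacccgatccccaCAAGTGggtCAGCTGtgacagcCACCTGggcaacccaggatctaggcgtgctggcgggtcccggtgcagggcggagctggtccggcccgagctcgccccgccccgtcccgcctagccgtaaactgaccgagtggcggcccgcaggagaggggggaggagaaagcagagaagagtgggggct
The window held 3 E-boxes for Itgb5, 2 for Lamb1, 1 for Lamb2 and 0 for Itga2. An E-box occurred in 72.3% of all 32851 promoters of this length and in 22 of the 26 promoters found for 23 of the 37 members (84.6%). The GC box GGGCGG, searched on both strands, occurred 3 times for Itgb5, 2 times for Lamb1, 1 time for Itga2 and 0 times for Lamb2, against 35.7% of all promoters with at least 1. The window of Lamb2 was 44.0% G and C, below that of Itga2 at 59.3%, of Lamb1 at 63.7% and of Itgb5 at 65.7%. TATAAA was in none of the 26 member promoters and in 13.6% of all promoters. No binding was measured.

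Libraries held 63018968 to 123449246 counted reads. In each library the top 20 genes by count held 13.7 to 16.1% of all reads at E18.5, 33.2 to 35.6% at 2 weeks and 36.4 to 37.8% at 7 weeks, while the members together took 0.324 to 0.38%, 0.165 to 0.19% and 0.0919 to 0.131%. Levels are therefore given in CPM, the reads of a gene relative to the size of its library, after TMM scaling, which sets libraries on a common scale from the bulk of genes. Scaling to the total count moved the median log2 change of all tested genes from -0.092 to -1.019 between E18.5 and 2 weeks, from -0.034 to -0.383 between 2 and 7 weeks and from -0.088 to -1.365 between E18.5 and 7 weeks, and it lowers the members by about as much. The libraries also differed in how counts rose or fell with the G and C content of a gene. At the content of Lamb2 this trend on the log2 scale was -1.34, -0.13, -0.62 and -0.74 at E18.5. It was 0.57, 0.43, 0.5 and 0.63 at 2 weeks and -0.13, 0.08, 0.47 and 0.37 at 7 weeks. E18.5 replicate 1 was farthest from the rest, but all E18.5 libraries lay below all those at 2 weeks, so the trend differed with age there. Each change was recomputed with this trend removed from every library. The fibre markers Ckm, Acta1, Ttn, Des and Mb were present in all libraries, with a summed level of 6612 to 13370.4 CPM at E18.5, 70096.1 to 101212.1 at 2 weeks and 76633.6 to 111139.2 at 7 weeks.

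Of the 37 members, 36 passed the filter on low counts, and the exception was Itgad, a leukocyte chain counted 0 to 3 times per library. From E18.5 to 2 weeks 12 members rose and 13 fell at an adjusted p under 0.05 in edgeR's quasi-likelihood test, adjusted by Benjamini-Hochberg over all 19276 genes tested, and 11 passed in neither direction. Over all tested genes 31.5% rose and 34.2% fell in this comparison, so the members' shares of 33.3 and 36.1% were near the background. The median log2 change of the members was -0.003. From 2 to 7 weeks 4 members rose, against 13.5% of all genes, and 8 fell, against 13.9%, with a median of -0.364. Over the whole period 10 rose, against 34.3% of all genes, and 17 fell, against 37.1%, with a median of -0.263.

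**Figure D1:**
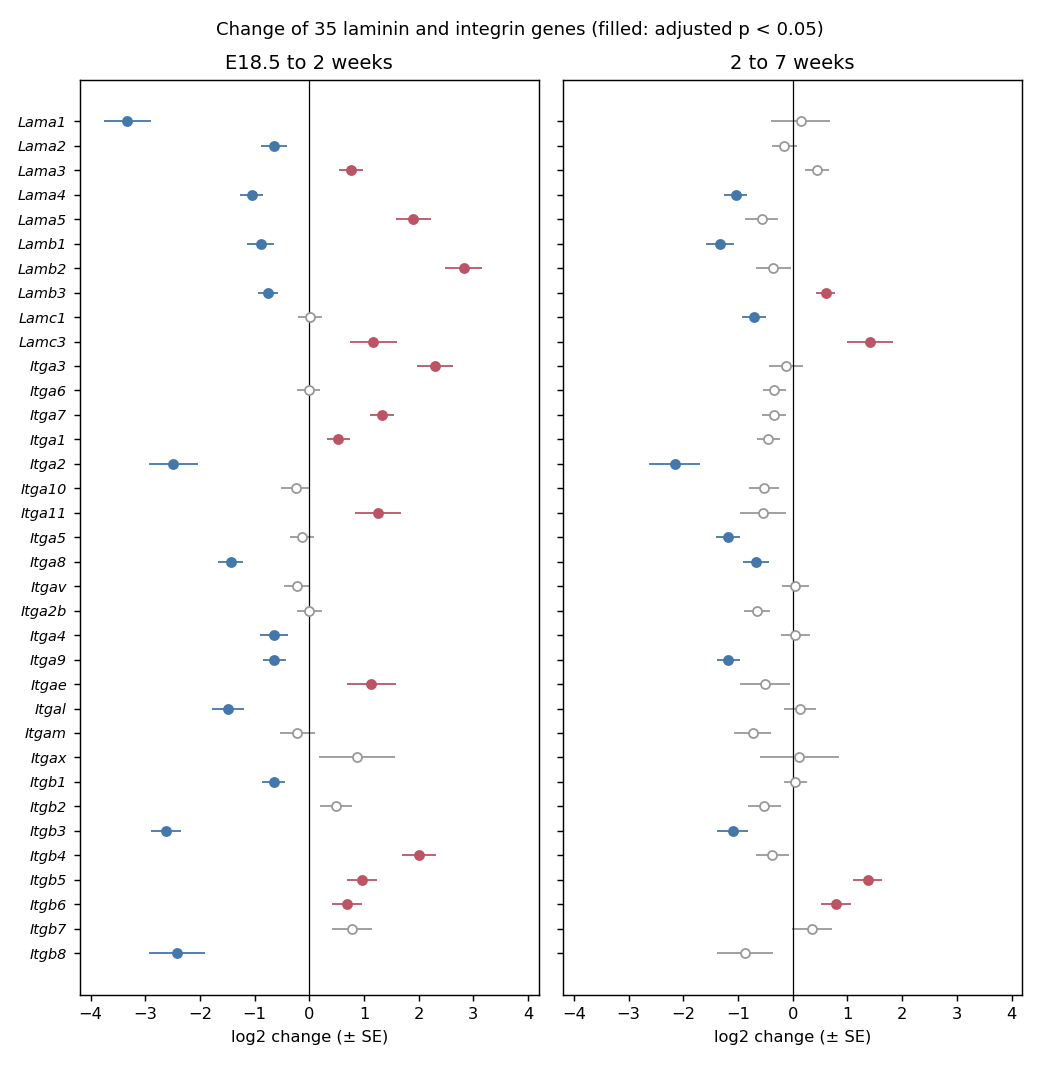
Log2 change (x axis, with standard error) of 35 tested members (y axis) from E18.5 to 2 weeks on the left and from 2 to 7 weeks on the right, filled red where a gene rose and filled blue where it fell at an adjusted p under 0.05 and open otherwise. On the left 12 genes are red and 13 blue, with Lamb2 farthest right at 2.82 and Lama1 farthest left at -3.33, and on the right 4 are red and 8 blue.

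Some of these calls held under every setting tried and others did not. Of the 12 rises to 2 weeks, those of Lama5, Lamb2, Itga3 and Itgb4 passed under all other scalings, filters and tests and without any single library. Of the 13 falls, those of Lama1, Lama4, Lamb1, Lamb3, Itga2, Itga8, Itga9, Itgal, Itgb3 and Itgb8 did so wherever tested, 10 in all. The stricter filter of 10 counts in every library removed Lama1, which had as few as 2, so it was not tested there. After 2 weeks the rise of Itgb5 and the falls of Lama4, Lamb1, Itga2, Itga5, Itga9 and Itgb3 passed under all of them. With total count scaling 4 members rose and 21 fell to 2 weeks, 1 rose and 16 fell after it, and 4 rose and 23 fell over the whole period. Of all 19276 tested genes 2550 rose and 11923 fell to 2 weeks under that scaling. After 2 weeks 948 of all genes rose and 5392 fell, and over the whole period 2291 rose and 13297 fell. With the trend in G and C content removed 7 members rose and 15 fell to 2 weeks, 3 rose and 10 fell after it, and 8 rose and 18 fell over the whole period. The counts over all genes were then 5229 and 7632 to 2 weeks, 2523 and 3571 after it and 5867 and 8552 over the whole period. Members that rose to 2 weeks had a median of 55.8% G and C over their exons, and those that fell had 48.1%.

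**Figure D2:**
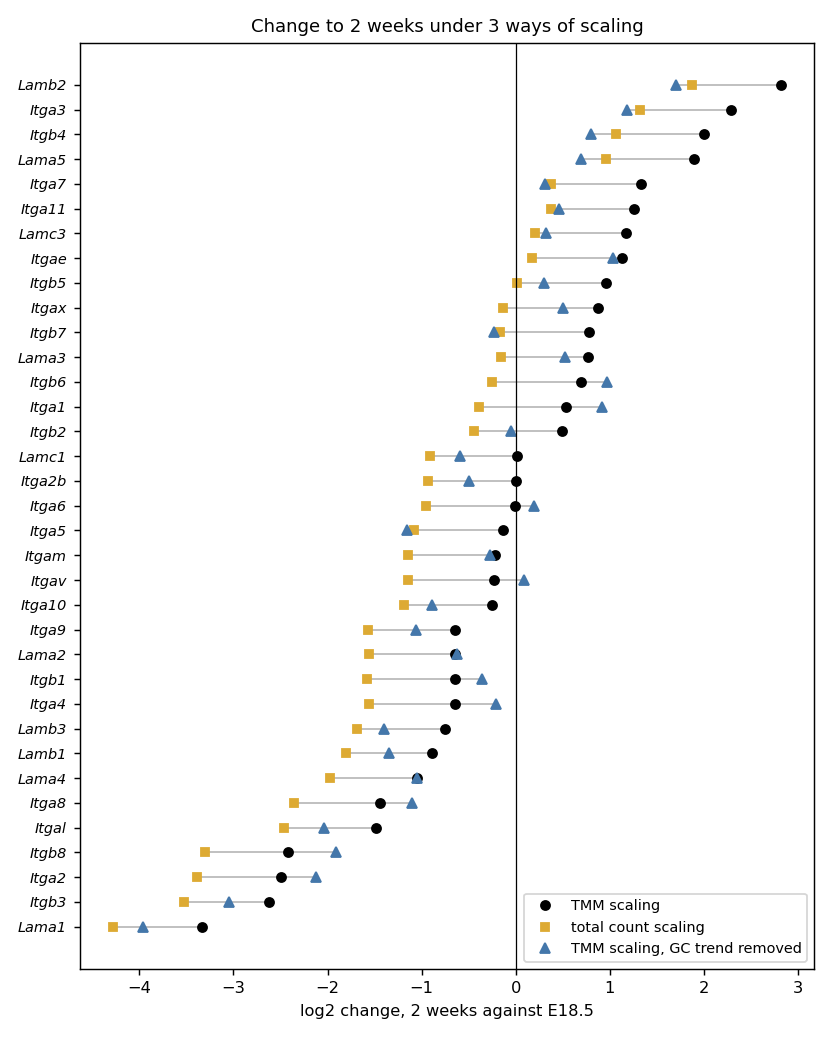
Log2 change from E18.5 to 2 weeks (x axis) of 35 tested members (y axis, ordered by the TMM value), as black circles for TMM scaling, yellow squares for total count scaling and blue triangles for TMM scaling with the trend in G and C content removed from each library. All 3 marks lie right of 0 for Lamb2, Itga3, Itgb4 and Lama5, among others, and left of 0 for the 13 members that fell. The yellow square of Itgb5 lies only just right of 0, at 0.01, and that of Itga1 lies left of 0, at -0.39.

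The laminin beta chains exchanged places. Lamb2 was measured at 22.3, 78.5, 34.1 and 36.6 CPM at E18.5, at 240.1, 211.8, 369.6 and 387.6 at 2 weeks and at 198.3, 228.1, 234.8 and 283.2 at 7 weeks. Every library after birth lay far above every E18.5 library, and the 2 later ages overlapped. The rise to 2 weeks was 2.82 on the log2 scale (SE 0.34, adjusted p = 1.09e-05, edgeR), or 7.05-fold, and the largest of any member. It was 1.70 with the trend in G and C content removed (adjusted p = 1.15e-05) and 1.87 with total count scaling. The change after 2 weeks, -0.36 (SE 0.32), did not pass (adjusted p = 0.435).

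Lamb1, the beta chain of early laminins, was measured at 248.9, 306.4, 254.4 and 242.1 CPM at E18.5, at 174.2, 162.2, 130.8 and 101.3 at 2 weeks and at 84.9, 64.5, 39.1 and 37.2 at 7 weeks. The 3 ages did not overlap, and the level went down at each step. It fell by 0.89 on the log2 scale to 2 weeks (SE 0.25, adjusted p = 0.00703, edgeR) and by 1.33 after it (SE 0.26, adjusted p = 0.00218), the second largest fall of a member in that interval. Lamb3, a chain of epithelial laminins, was low throughout, with means of 7.23 ± 0.976, 4.29 ± 0.665 and 6.49 ± 1.17 CPM (SD, n = 4). It fell by 0.75 to 2 weeks and rose by 0.60 after it, and the later rise was lost with total count scaling (0.26, adjusted p = 0.278, edgeR) and without any of 4 libraries, replicates 1 and 2 at 2 weeks and replicates 1 and 2 at 7 weeks.

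A ratio of 2 genes within a library does not depend on how libraries are scaled. It can still depend on the trend in G and C content, which was 58.8% for Lamb2 and 52.4% for Lamb1. Per kilobase of exon, the log2 ratio of Lamb2 to Lamb1 was -2.66, -1.15, -2.08 and -1.91 at E18.5, 1.28, 1.20, 2.32 and 2.75 at 2 weeks and 2.04, 2.64, 3.40 and 3.75 at 7 weeks. It was below 0 in all E18.5 libraries and above 0 in all 8 later ones. The mean moved by 3.84 (SE 0.50) to 2 weeks, a 14.3-fold change of the ratio with the trend in G and C content left in. The rise of Lamb2 alone was smaller with that trend removed, as given above. A two-sided exact permutation test of 4 mice against 4 gave p = 0.0286 for this move of the ratio, the smallest p this design allows. The adjusted p over the 24 ratio tests was 0.0381. The further move of 1.07 (SE 0.54) after 2 weeks did not pass (exact permutation p = 0.143, adjusted 0.171). As a share of the counts per kilobase of the 3 laminin beta genes, Lamb2 was 20.6 ± 7.22% at E18.5, 77.1 ± 8.71% at 2 weeks and 86.2 ± 5.89% at 7 weeks (SD, n = 4). Per kilobase of the longest transcript these mean shares were 13.7, 67.4 and 79.7%.

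**Figure D3:**
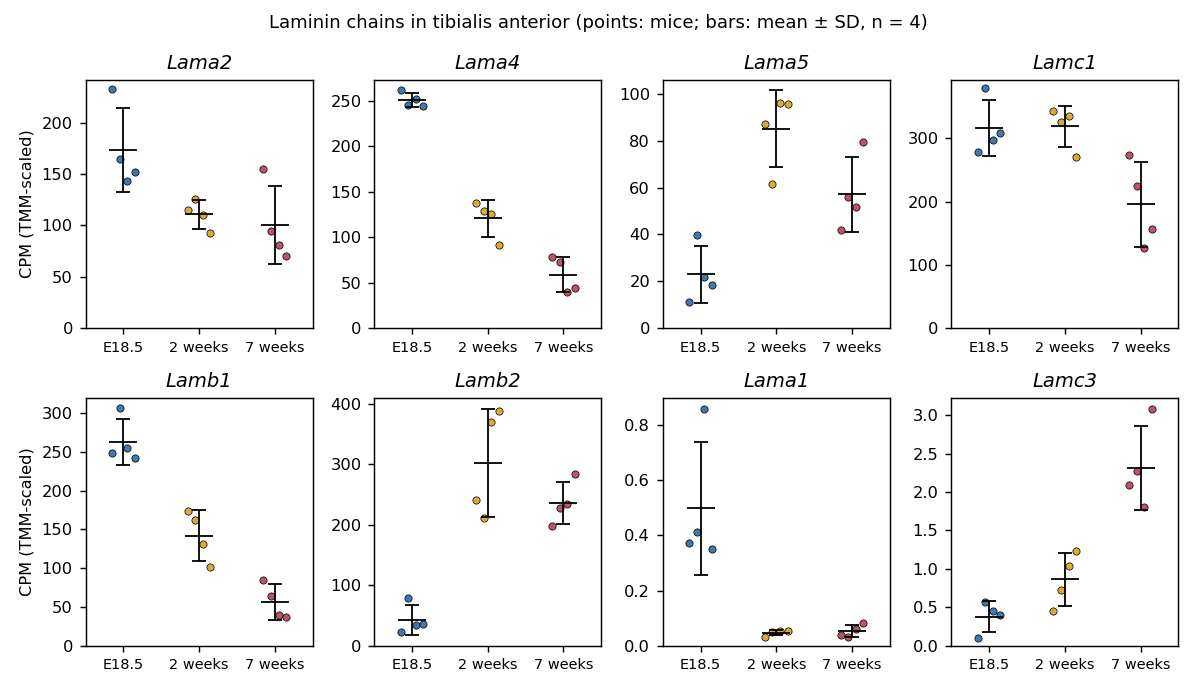
Level in TMM-scaled CPM (y axes, each from 0 with its own range) of 8 laminin genes in each mouse at E18.5, 2 weeks and 7 weeks (x axis), with the mean and SD of 4 mice as a bar. Lamb2 lies at 22.3 to 78.5 CPM at E18.5 and at or above 198.3 at both later ages, while Lamb1 and Lama4 step down at each age.

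Among the laminin alpha chains, Lama4 fell in both intervals and Lama5 rose to 2 weeks. Lama4, the alpha chain of vascular and of early fibre laminins, was measured at 262.4, 246.1, 252.1 and 244.3 CPM at E18.5, at 138.2, 128.9, 125.6 and 91.4 at 2 weeks and at 78.2, 73.0, 39.9 and 44.1 at 7 weeks. The ages did not overlap. It fell by 1.05 on the log2 scale to 2 weeks (SE 0.21, adjusted p = 0.000683, edgeR) and by 1.04 after it (SE 0.21, adjusted p = 0.00334). The difference between the 2 intervals, -0.01 (SE 0.37), did not pass (adjusted p = 0.983).

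Lama5, an alpha chain of vessels and of the mature synapse, was measured at 11.2, 39.8, 22.0 and 18.46 CPM at E18.5, at 87.3, 61.4, 96.2 and 95.9 at 2 weeks and at 41.9, 55.8, 51.6 and 79.5 at 7 weeks. All later libraries lay above all E18.5 libraries. The rise to 2 weeks of 1.90 (SE 0.32, adjusted p = 0.000171, edgeR), or 3.73-fold, was 0.69 with the trend in G and C content removed (adjusted p = 0.00315) and 0.96 with total count scaling (adjusted p = 0.0122). Over the whole period the rise of 1.32 (SE 0.32, adjusted p = 0.00194) became 0.04 with total count scaling (adjusted p = 0.903).

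Lama2, the alpha chain of the fibre's own basement membrane, was measured at 233.5, 164.9, 143.4 and 152.4 CPM at E18.5, at 115.0, 126.0, 109.7 and 92.7 at 2 weeks and at 155.0, 94.6, 80.7 and 69.7 at 7 weeks. All E18.5 libraries lay above all those at 2 weeks, and the 7-week libraries overlapped both. The fall to 2 weeks of 0.65 on the log2 scale (SE 0.24, adjusted p = 0.0263, edgeR) was lost without E18.5 replicate 1 (-0.47, adjusted p = 0.0897), without any of replicates 1, 3 and 4 at 2 weeks and with the trend in gene length removed (-0.36, adjusted p = 0.122). The change after 2 weeks, -0.15 (SE 0.23), did not pass (adjusted p = 0.674), and the fall over the whole period was 0.80 (SE 0.24, adjusted p = 0.00787).

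The remaining alpha genes were low. Lama1, an alpha chain of embryonic basement membranes, was measured at 0.374, 0.411, 0.858 and 0.349 CPM at E18.5, at 0.0335, 0.0515, 0.0548 and 0.0523 at 2 weeks and at 0.0401, 0.0311, 0.0613 and 0.0825 at 7 weeks. These levels stand on 371 counts over the 4 E18.5 libraries, 15 at 2 weeks and 13 at 7 weeks. Per effective library size E18.5 was 10.5 times higher than 2 weeks, with an exact (Clopper-Pearson) 95% interval of 6.27 to 18.9 that covers counting error only, and the edgeR test gave -3.33 (SE 0.43, adjusted p = 1.65e-05). Lama3, an epithelial chain, had means of 5.49 ± 0.647, 9.38 ± 1.08 and 12.8 ± 4.96 CPM (SD, n = 4), and its rise of 0.77 to 2 weeks was -0.16 with total count scaling.

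Within the alpha chains the share of Lama4 was lower and that of Lama5 higher at both later ages than at E18.5, while the range of Lama2 at 7 weeks took in its whole range at E18.5. Of the summed counts per kilobase of the 5 alpha genes, Lama4 made up 56.9 ± 3.57% at E18.5, 34.7 ± 4.23% at 2 weeks and 24.0 ± 5.43% at 7 weeks (SD, n = 4). Lama5 made up 7.14 ± 3.69%, 33.8 ± 6.94% and 33.3 ± 10.6%, and Lama2 34.3 ± 5.23%, 28.2 ± 3.38% and 36 ± 9.34%. At 7 weeks the ranges of Lama2, 25.7 to 48.2%, of Lama5, 20.3 to 45.6%, and of Lama4, 18.4 to 29.6%, overlapped, so no order among them holds beyond their spread. These shares also depend on the length used. Per kilobase of the longest transcript, Lama2, Lama4 and Lama5 made up 32.7, 43.6 and 21.5% at 2 weeks. At 7 weeks they made up 42.5, 30.8 and 22.0%, with Lama4 then above Lama5.

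The log2 ratio of Lama4 to Lama5 per kilobase was 4.1, 2.173, 3.06 and 3.27 at E18.5, 0.21, 0.61, -0.07 and -0.53 at 2 weeks and 0.44, -0.07, -0.83 and -1.31 at 7 weeks. All E18.5 libraries lay above all later ones, a mean difference of -3.10 (SE 0.46) to 2 weeks with an adjusted exact permutation p of 0.0381. After 2 weeks it moved by -0.50 (SE 0.46, adjusted 0.359 in the exact permutation test). After removal of the trend in G and C content these moves were -1.75 and -1.04, each with an adjusted exact permutation p of 0.0403, so that the later one then passed. The ratio of Lama2 to Lama5 fell by 2.65 (SE 0.54) to 2 weeks and by 2.27 (SE 0.65) over the whole period, both with an adjusted exact permutation p of 0.0381, and by 1.29 and 1.45 with the trend removed. The ratio of Lama2 to Lama4 rose by 0.88 (SE 0.17) after 2 weeks and by 1.32 (SE 0.21) over the whole period, both with an adjusted exact permutation p of 0.0381, and its move of 0.44 (SE 0.15) to 2 weeks did not pass (adjusted 0.108, exact permutation).

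Lamc1, the gamma chain shared by nearly all laminins of muscle, made up 98.9 ± 0.129% of the gamma genes' counts per kilobase at E18.5, 98.6 ± 0.234% at 2 weeks and 97.0 ± 0.581% at 7 weeks (SD, n = 4). It was measured at 278.8, 380.1, 297.6 and 307.9 CPM at E18.5, at 343.8, 326.0, 335.1 and 271.0 at 2 weeks and at 273.8, 225.3, 126.0 and 156.8 at 7 weeks. The first 2 ages covered the same range, with a change of 0.01 (SE 0.22, adjusted p = 0.961, edgeR) under TMM scaling, and of -0.91 with total count scaling (adjusted p = 0.0026) and -0.59 with the trend in G and C content removed (adjusted p = 0.0423). The fall after 2 weeks of 0.71 on the log2 scale (SE 0.22, adjusted p = 0.0272) was lost with the trend removed (-0.61, adjusted p = 0.0692) and without any of 5 libraries, replicates 1, 2 and 3 at 2 weeks and replicates 3 and 4 at 7 weeks. Over the whole period Lamc1 fell by 0.69 (SE 0.22, adjusted p = 0.0107, edgeR) without overlap of the 2 ages, and this call passed under every setting.

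Lamc3, a rare gamma chain, rose in both intervals from a low level. It was measured at 0.104, 0.568, 0.454 and 0.399 CPM at E18.5, at 0.453, 0.732, 1.04 and 1.23 at 2 weeks and at 2.09, 2.27, 1.81 and 3.08 at 7 weeks. The first 2 ages overlapped and the 7-week libraries lay above all others. The rise after 2 weeks of 1.42 (SE 0.42, adjusted p = 0.024, edgeR) was the largest of any member in that interval, and was 1.1 with total count scaling (adjusted p = 0.0569). That later rise was also lost without replicate 1 or 2 at 2 weeks or replicate 4 at 7 weeks. The rise to 2 weeks of 1.17 was 0.32 with the trend in G and C content removed (adjusted p = 0.431, edgeR). It was 0.21 with total count scaling (adjusted p = 0.66, edgeR). This earlier rise was also lost without replicate 3 or 4 at 2 weeks and in the fit to the 8 libraries of the ages compared.

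Summed over all laminin genes per kilobase, the level was 83.2 to 105 CPM at E18.5, 100.8 to 126.9 at 2 weeks and 66.8 to 84.1 at 7 weeks. The sum of the alpha genes went from 28.2 ± 2.36 to 22.1 ± 1.71 and 15.3 ± 2.29 CPM per kilobase, and the sum of the beta genes from 32.4 ± 6.63 to 63.4 ± 12 and 44.8 ± 4.11 (SD, n = 4). These sums are a description on the TMM scale and were not tested.

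Among the receptors, the laminin-binding integrin alpha chains of Itga3, Itga6 and Itga7 behaved unequally. Itga7, the alpha chain of the adult fibre's laminin receptor, was measured at 43.4, 95.2, 68.6 and 53.4 CPM at E18.5, at 143.2, 126.1, 195.2 and 191.9 at 2 weeks and at 121.5, 131.4, 129.2 and 133.6 at 7 weeks. All later libraries lay above all E18.5 libraries. The rise to 2 weeks of 1.33 (SE 0.22, adjusted p = 0.000149, edgeR), or 2.52-fold, held without each library in turn (1.18 to 1.58), but it was 0.31 with the trend in G and C content removed (adjusted p = 0.0785) and 0.38 with total count scaling (adjusted p = 0.116). Over the whole period the rise was 0.98 (SE 0.22, adjusted p = 0.0012) under TMM scaling, 0.22 with the trend removed (adjusted p = 0.184) and -0.30 with total count scaling (adjusted p = 0.203).

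Itga6, a laminin receptor chain of satellite cells, vessels and nerve, was measured at 107.5, 79.7, 86.2 and 89.7 CPM at E18.5, at 84.9, 66.3, 116.1 and 94.2 at 2 weeks and at 74.7, 83.6, 44.8 and 82.0 at 7 weeks. The 3 ages overlapped, and no change passed in the edgeR test under TMM scaling (-0.01 to 2 weeks, -0.34 after it). With total count scaling the changes were -0.95 (adjusted p = 0.000756) and -0.67 (adjusted p = 0.0218). With the trend in G and C content removed the change after 2 weeks was -0.54 (adjusted p = 0.0349), and with the stricter filter the change over the whole period was -0.51 (adjusted p = 0.0418).

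Itga3, a laminin receptor chain that is low in this muscle, was measured at 0.901, 2.63, 2.85 and 2.12 CPM at E18.5, at 8.25, 7.06, 12.7 and 13.7 at 2 weeks and at 7.72, 8.34, 10.7 and 11.5 at 7 weeks. Its later libraries lay above all E18.5 libraries. The rise to 2 weeks of 2.29 (SE 0.33, adjusted p = 4.17e-05, edgeR), 4.89-fold, was the second largest of the members and was 1.18 with the trend in G and C content removed (adjusted p = 0.000417).

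**Figure D4:**
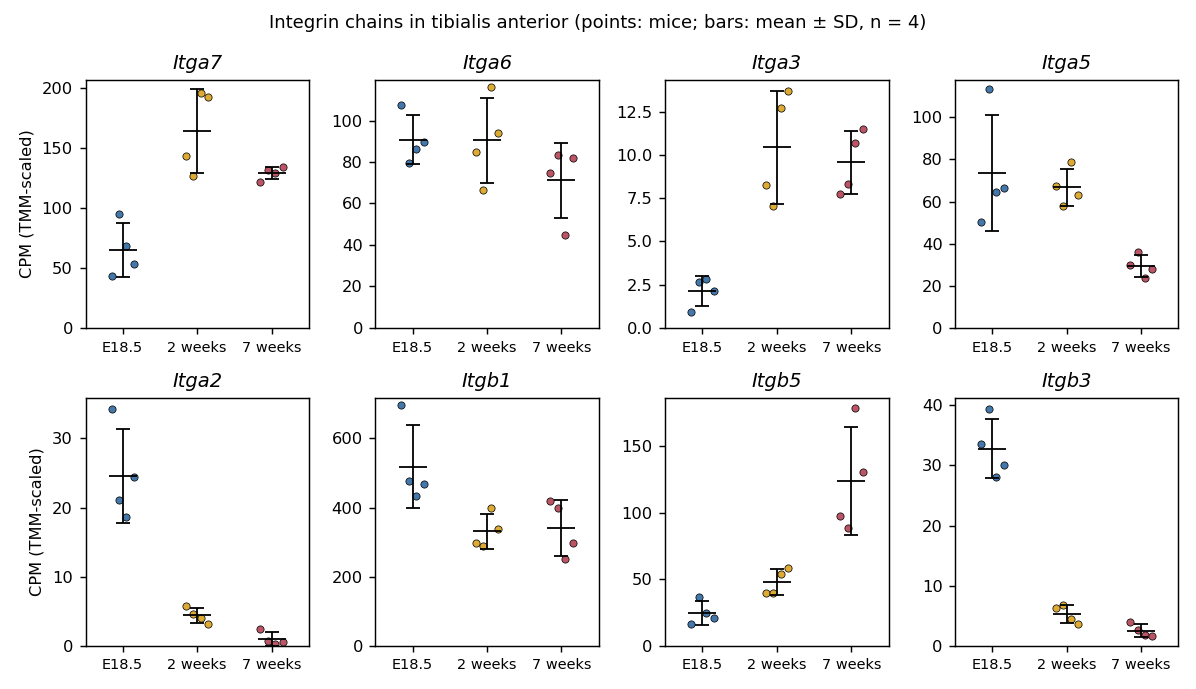
Level in TMM-scaled CPM (y axes, each from 0 with its own range) of 8 integrin genes in each mouse at E18.5, 2 weeks and 7 weeks (x axis), with the mean and SD of 4 mice as a bar. Itga7 and Itga3 sit higher at both later ages, Itga2 and Itgb3 step down from E18.5, and Itgb5 reaches 88.5 to 178.2 CPM at 7 weeks.

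The level of Itga7 was set against 3 other alpha genes, Itga5, Itga6 and Itga4 within each library. Its log2 ratio per kilobase to Itga5 was -0.85, -0.89, -0.56 and -0.95 at E18.5, 0.44, 0.48, 0.67 and 0.97 at 2 weeks and 1.37, 1.22, 1.80 and 1.63 at 7 weeks. The 3 ages did not overlap, and the moves of 1.45 (SE 0.15) and 0.86 (SE 0.18) each had an adjusted exact permutation p of 0.0381. The ratio of Itga7 to Itga6 moved by 1.40 (SE 0.34) and that to Itga4 by 2.00 (SE 0.51) to 2 weeks, both with an adjusted exact permutation p of 0.0381, but by 0.13 and 0.51 with the trend in G and C content removed (adjusted 0.218 for each, exact permutation). Of the counts per kilobase of all integrin alpha genes, Itga7 made up 15.4 ± 3.89% at E18.5, 34.4 ± 3.75% at 2 weeks and 39.1 ± 5.23% at 7 weeks (SD, n = 4), while Itga5 made up 27.0 ± 6.89%, 22.0 ± 1.33% and 13.7 ± 1.18%.

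**Figure D5:**
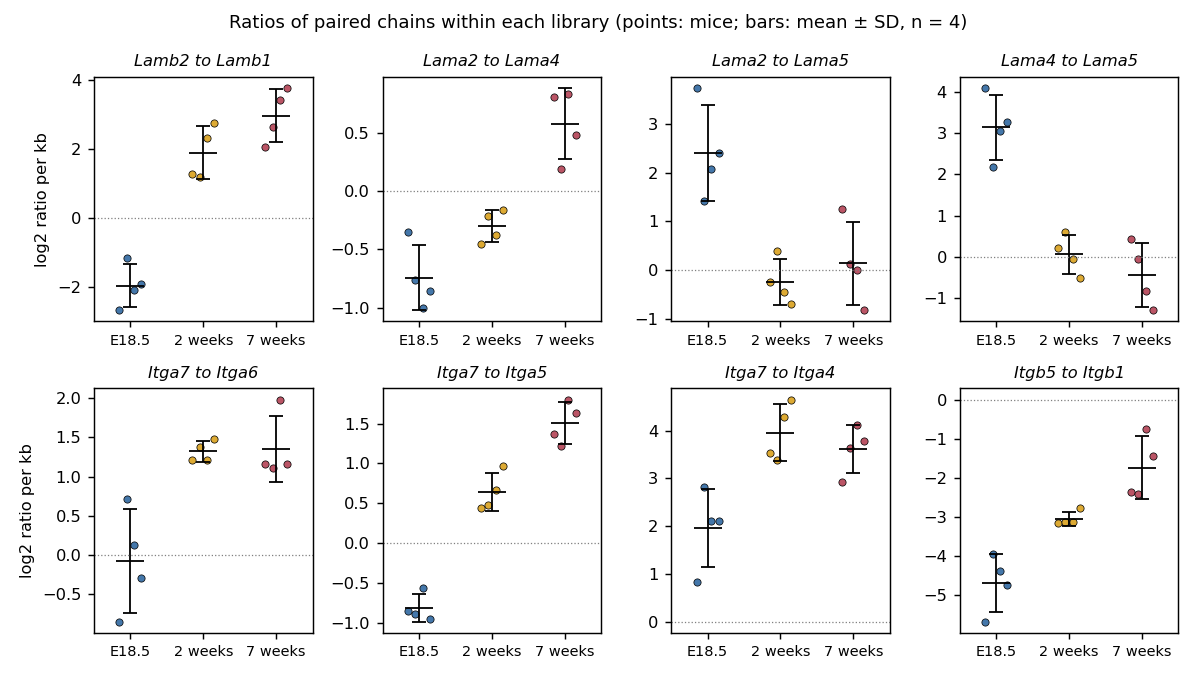
Log2 ratio per kilobase of exon (y axes, each with its own range; dotted line at 0, equal levels) of 8 pairs of members within each library at E18.5, 2 weeks and 7 weeks (x axis), with the mean and SD of 4 mice as a bar. The ratio of Lamb2 to Lamb1 passes from a mean of -1.95 to 1.89 and 2.96, and that of Itga7 to Itga5 from -0.81 to 0.64 and 1.5.

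The integrin alpha chains that bind collagen differed from each other. Itga2, a collagen receptor chain best known from platelets and epithelia, was measured at 34.2, 21.1, 18.7 and 24.4 CPM at E18.5, at 5.69, 4.64, 4.07 and 3.17 at 2 weeks and at 2.43, 0.683, 0.322 and 0.561 at 7 weeks. The ages did not overlap. It fell by 2.49 on the log2 scale to 2 weeks (SE 0.45, adjusted p = 0.000293, edgeR) and by 2.16 after it (SE 0.47, adjusted p = 0.00466), which is 25.1-fold over the whole period (-4.65) and the largest fall of a member there. Replicate 1 at 7 weeks was the highest of its group, and without it the changes were -3.07 after 2 weeks and -5.55 over the whole period. Of the platelet markers Pf4, Ppbp, Gp1ba and Gp9 the summed level ran from 8.11 to 16.1 CPM at E18.5, 4.64 to 7.19 at 2 weeks and 1.17 to 2.57 at 7 weeks, with Gp9 nearly absent, and the cartilage and bone markers Col2a1, Acan, Sp7 and Ibsp from 23.3 to 140 CPM, 2.95 to 10.5 and 0.597 to 1.37. Their part in the fall of Itga2 was not tested. Itga1 and Itga11, collagen receptors of vessels and fibroblasts, rose to 2 weeks by 0.53 and 1.26 (adjusted p = 0.0351 and 0.0176, edgeR), but with total count scaling the values were -0.39 and 0.38, and neither call held without each library in turn. Itga10 had means of 5.05, 4.24 and 2.95 CPM and passed only over the whole period, with a fall of 0.78 on the log2 scale (adjusted p = 0.0181, edgeR). That call was lost without E18.5 replicate 2 (-0.50, adjusted p = 0.0752) and without replicate 2 or 4 at 7 weeks. To 2 weeks Itga10 changed by -0.25 under TMM scaling, by -0.89 with the trend in G and C content removed (adjusted p = 0.00808) and by -1.19 with total count scaling (adjusted p = 0.000898), and 33.5% of its exon length is shared with Gm42957 on the same strand.

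The integrin alpha chains that bind the RGD motif of fibronectin and vitronectin fell or did not pass. Itga5, the fibronectin receptor chain, was measured at 50.2, 113.4, 64.8 and 66.4 CPM at E18.5, at 67.6, 57.8, 78.7 and 63 at 2 weeks and at 30.1, 36.3, 23.8 and 27.8 at 7 weeks. The first 2 ages overlapped and all 7-week libraries lay below them. The change to 2 weeks, -0.14 (SE 0.22), did not pass (adjusted p = 0.586, edgeR), while with the trend in G and C content removed it was -1.16 (adjusted p = 0.000137). After 2 weeks Itga5 fell by 1.18 on the log2 scale (SE 0.22, adjusted p = 0.0021). Itga8, a receptor chain for nephronectin and fibronectin, fell from 19.1 ± 6.49 CPM to 7.04 ± 0.754 (SD, n = 4) at 2 weeks, a change of -1.44 (SE 0.23, adjusted p = 0.000103, edgeR), and its further fall of 0.67 after 2 weeks was lost without any of 8 libraries. Itgav, the alpha chain of vitronectin receptors, passed no comparison under TMM scaling, with means of 44.7, 38.1 and 39.5 CPM.

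Itga4 and Itga9 encode the receptor chains for fibronectin, tenascin and the adhesion molecule of Vcam1. Itga4 was measured at 49.0, 27.4, 32.2 and 25.2 CPM at E18.5, at 25.0, 24.5, 20.3 and 15.4 at 2 weeks and at 32.2, 21.2, 15.1 and 19.5 at 7 weeks. The fall to 2 weeks of 0.65 on the log2 scale (SE 0.26, adjusted p = 0.0371, edgeR) was -0.21 with the trend in G and C content removed (adjusted p = 0.34) and was lost without E18.5 replicate 1 (-0.41, adjusted p = 0.145), without E18.5 replicate 3, without replicate 3 or 4 at 2 weeks and with the trend in gene length removed (-0.35, adjusted p = 0.153). The fall over the whole period of 0.60 (adjusted p = 0.0469, edgeR) was lost without any of 8 libraries, and 20.8% of the gene's exon length lies opposite exons of Cerkl. Itga9 was measured at 32.6, 29.9, 35.3 and 24.1 CPM at E18.5, at 20, 18.4, 22.4 and 17.5 at 2 weeks and at 10.5, 11.5, 6.19 and 6.38 at 7 weeks. Its ages did not overlap, and it fell by 0.64 to 2 weeks (SE 0.21, adjusted p = 0.0142, edgeR) and by 1.18 after it (SE 0.21, adjusted p = 0.00135), both under every setting.

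The leukocyte alpha chains were low, with every library at or below 5.75 CPM. Itgal, the alpha chain of the lymphocyte receptor for Icam1, fell from 4.78 ± 0.984 to 1.70 ± 0.661 CPM (SD, n = 4) at 2 weeks, a change of -1.49 (SE 0.29, adjusted p = 0.000545, edgeR), and the change after it did not pass (0.14, adjusted p = 0.756). The 7 leukocyte markers summed to 86.6 to 130.2 CPM at E18.5, 64.5 to 85.4 at 2 weeks and 34.1 to 83.0 at 7 weeks, and of them Ptprc and Adgre1 fell to 2 weeks (-1.98 and -2.40) and Cd3e rose (1.73) from a mean of 0.0691 CPM. Their part in the fall of Itgal was not tested. Itgam, the myeloid chain, shares 67.4% of its exon length with Gm49368 on the same strand, so its counts of 0.396 to 1.73 CPM are uncertain, and Itgae and Itgax stood at 0.0416 to 2.31 CPM.

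Itgb1, the common integrin beta chain and the main partner of the laminin and collagen receptor chains, held the largest share of the beta genes at every age. It was measured at 696, 475.9, 433.8 and 469.0 CPM at E18.5, at 297.4, 289.9, 399.1 and 338.0 at 2 weeks and at 419.9, 398.2, 251.0 and 298.1 at 7 weeks. E18.5 replicate 1 stood above its group, and all E18.5 libraries lay above all later ones. The fall to 2 weeks of 0.65 on the log2 scale (SE 0.21, adjusted p = 0.0134, edgeR) was -0.36 with the trend in G and C content removed (adjusted p = 0.0559) and -0.47 without E18.5 replicate 1 (adjusted p = 0.0439). After 2 weeks the change was 0.05 (SE 0.21, adjusted p = 0.892). The counts do not separate the splice forms of Itgb1.

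Itgb5, a beta chain of vitronectin receptors, was measured at 16.2, 36.9, 24.6 and 20.9 CPM at E18.5, at 39.8, 39.5, 53.9 and 58.6 at 2 weeks and at 97.7, 88.5, 178.2 and 130.3 at 7 weeks. The 3 ages did not overlap, and the level went up at each step. The rise after 2 weeks was 1.37 (SE 0.27, adjusted p = 0.00257, edgeR), 2.58-fold, and passed under every setting. The earlier rise of 0.96 (SE 0.27, adjusted p = 0.00608) was 0.01 with total count scaling (adjusted p = 0.97) and 0.30 with the trend in G and C content removed (adjusted p = 0.164). The log2 ratio of Itgb5 to Itgb1 per kilobase was -5.67, -3.93, -4.38 and -4.73 at E18.5, -3.14, -3.12, -3.13 and -2.77 at 2 weeks and -2.35, -2.41, -0.74 and -1.44 at 7 weeks, so the ages did not overlap, and it rose by 1.64 (SE 0.38) and then by 1.31 (SE 0.41), each with an adjusted exact permutation p of 0.0381. After removal of the trend in G and C content they were 0.65 and 1.60 (adjusted 0.0403 each, exact permutation). Itgb5 made up 3.68 ± 1.56%, 9.78 ± 1.17% and 21.8 ± 9.55% of the beta genes' counts per kilobase, and Itgb1 87.1 ± 2.60%, 80.1 ± 1.22% and 67.9 ± 8.17% (SD, n = 4).

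Itgb3, the beta chain of platelets and of the vitronectin receptor, had the largest fall of the beta chains to 2 weeks. It was measured at 33.6, 39.4, 28.1 and 30.1 CPM at E18.5, at 6.32, 6.84, 4.51 and 3.65 at 2 weeks and at 3.99, 2.59, 1.72 and 1.68 at 7 weeks. All E18.5 libraries lay above the rest. It fell by 2.62 on the log2 scale to 2 weeks (SE 0.28, adjusted p = 4.09e-06, edgeR) and by 1.1 after it (SE 0.28, adjusted p = 0.0104). Its platelet partner Itga2b stood at 1.06 to 2.84 CPM over the 12 libraries, with a change of 0.00 to 2 weeks (SE 0.23) under TMM scaling and of -0.50 with the trend in G and C content removed (adjusted p = 0.0246, edgeR). Over the whole period Itga2b fell by 0.65 on the log2 scale (adjusted p = 0.0253, edgeR), a call lost without E18.5 replicate 2 (-0.40, adjusted p = 0.097) and without replicate 2 at 7 weeks, while the platelet markers had the levels given with Itga2. Itgb8 fell from 9.06 ± 5.35 to 1.69 ± 1.04 CPM (SD, n = 4), a change of -2.42 (SE 0.51, adjusted p = 0.000858, edgeR).

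Itgb4, the beta chain that pairs with that of Itga6 in epithelia, vessels and nerve sheaths, was measured at 1.144, 4.02, 2.58 and 1.77 CPM at E18.5, at 11.9, 8.87, 9.63 and 7.70 at 2 weeks and at 6.30, 8.17, 7.97 and 6.99 at 7 weeks. All later libraries lay above all E18.5 libraries. It rose by 2.00 to 2 weeks (SE 0.31, adjusted p = 8e-05, edgeR) and by 0.80 with the trend in G and C content removed (adjusted p = 0.00224), and 14.9% of its exon length lies opposite exons of Galk1. The epidermis markers Krt5, Krt14, Krt10, Krt1 and Dsp summed to 2.82 to 4.11 CPM at 2 weeks, with Krt5, Krt14 and Krt1 near 0 there, against 2.22 to 52.1 at E18.5.

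Itgb6, an epithelial beta chain, was measured at 26.4, 16.2, 12.1 and 13.5 CPM at E18.5, at 20.8, 23.6, 31.6 and 33.8 at 2 weeks and at 61.5, 60.4, 34.1 and 34.1 at 7 weeks. The first 2 ages overlapped, and the 7-week libraries lay just above those at 2 weeks. The rises of 0.69 (SE 0.28, adjusted p = 0.0414, edgeR) and 0.79 (SE 0.28, adjusted p = 0.0473) were each lost under several settings. The rise over the whole period was 1.48 (SE 0.28, adjusted p = 0.000314), and 0.21 with total count scaling (adjusted p = 0.454). Itgb2 and Itgb7, the leukocyte beta chains, stood at or below 2.67 CPM in every library, and Itgb7 rose only over the whole period (1.13, adjusted p = 0.0114, edgeR), by 0.44 with the trend in G and C content removed (adjusted p = 0.207).

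The change to 2 weeks was compared with the change after it in a contrast of its own, in which 11 of 36 members passed, against 38.4% of all genes. The 2-week libraries enter both intervals. Changes to 2 weeks were the more positive for Lamb2 (difference 3.17, SE 0.53, adjusted p = 0.000737, edgeR), Lama5 (2.47), Itga3 (2.42), Itgb4 (2.37), Itga7 (1.68), Itga5 (1.04) and Itga1 (0.99), and the more negative for Lama1 (-3.48, SE 0.87, adjusted p = 0.00737), Itgal (-1.63), Itgb3 (-1.52) and Lamb3 (-1.35). Those of Lama5, Lamb2 and Lamb3 passed under every setting. That of Lama1 passed under every setting that tested it, since the stricter filter removed this gene. By calls, 6 of the 36 members fell in both intervals (Lama4, Lamb1, Itga2, Itga8, Itga9 and Itgb3), against 6.79% of all tested genes, and 3 rose in both (Lamc3, Itgb5 and Itgb6), against 5.97%. A further 9 rose to 2 weeks and did not pass after it, against 22.8% of all genes, and 2, Lamc1 and Itga5, fell after 2 weeks without passing before it, against 4.44%.

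Other genes of the pathway were read from 3 lists, and over all tested genes 31.5% rose and 34.2% fell to 2 weeks and 13.5% rose and 13.9% fell after it. Of the 9 basement membrane partners of laminin, 5 rose and 2 fell to 2 weeks, with a median log2 change of 1.51, and 0 rose and 6 fell after it, with a median of -0.91. Col4a1, a chain of the collagen of basement membranes, went from a mean of 592.5 CPM to 1894.3 and 554.5, with changes of 1.68 and -1.77 (adjusted p = 6.36e-05 and 0.000309, edgeR). Hspg2, which encodes perlecan, went from 138.0 to 579.4 and 268.3 CPM. The linkers between laminin and that collagen fell instead, Nid1 from 610.5 to 275.3 and 157.6 CPM and Nid2 from 133.2 to 83.4 and 20.8. Dag1, whose product is the other laminin receptor of the fibre, had means of 270.0, 347.4 and 388.0 CPM and passed neither interval (0.36 and 0.16, adjusted p = 0.0901 and 0.542, edgeR), though it rose over the whole period (0.52, adjusted p = 0.0183). With the trend in G and C content removed 3 partners rose and 3 fell to 2 weeks, and with total count scaling 4 rose and 4 fell. Over all 19276 tested genes 5229 rose and 7632 fell with the trend removed, and 2550 rose and 11923 fell with total count scaling.

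Of the 9 ligands of other integrins, 2 rose and 6 fell to 2 weeks, against 31.5 and 34.2% of all genes, with a median log2 change of -1.83, and 0 rose and 1 fell after it, with a median of -0.69. Fn1, fibronectin, went from a mean of 661.1 CPM to 199.6 and 109.8, with a change of -1.73 to 2 weeks (SE 0.40, adjusted p = 0.00193, edgeR). Tnc, tenascin, changed by -2.66 and Npnt, nephronectin, by -2.61 (adjusted p = 0.00119 and 8.44e-08). Vtn, vitronectin, rose from 5.01 to 51.9 and 62.0 CPM, a change of 3.37 to 2 weeks (SE 0.24, adjusted p = 1.19e-07, edgeR). The falls numbered 6 with total count scaling and 7 with the trend in G and C content removed, and the rises 1 under each. The counts over all genes under these settings are those given with the partners.

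Of the 16 cytoplasmic proteins that link integrins to actin, 15 were tested, since Fermt1 had too few counts, and 7 rose and 4 fell to 2 weeks, against 31.5 and 34.2% of all genes. The median log2 change of the 15 was -0.23, below 0 although more rose than fell, and after 2 weeks 2 rose and 4 fell, with a median of -0.01. Lims2, an adaptor bound to the kinase-like protein of Ilk, rose from 3.63 CPM to 76.5 and 59.0, a change of 4.40 to 2 weeks (SE 0.34, adjusted p = 2.67e-07, edgeR), while its paralogue Lims1 went from 123.5 to 81.8 and 79.1 (-0.60, adjusted p = 0.0187). Parvb rose (0.88, adjusted p = 0.007) and its paralogue Parva fell (-0.56, adjusted p = 0.00743), from 86.7 to 58.7 and 33.3 CPM. Tns1, a tensin, rose in both intervals, from 215.4 to 455.5 and 793.3 CPM. The counts of rises and falls to 2 weeks were 1 and 8 with total count scaling and 2 and 6 with the trend in G and C content removed. Those over all 19276 tested genes were 2550 and 11923 with total count scaling and 5229 and 7632 with the trend removed.

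Markers of the cell types that carry these proteins also moved between the ages. The 5 endothelial markers summed to 318.5 to 471.6 CPM at E18.5, 722.1 to 882.2 at 2 weeks and 452.8 to 754.8 at 7 weeks, with 3 higher and 0 lower at 2 weeks than at E18.5. The 4 mural cell markers summed to 181.3 to 248.3, 801.8 to 931.8 and 787.5 to 980.0 CPM, and the 5 Schwann cell markers to 146.5 to 245.2, 133.3 to 628.1 and 100.2 to 152.2. The 5 fibroblast markers summed to 4493.4 to 8669.3, 3200.1 to 4741.8 and 781.4 to 2789.5 CPM, with 0 higher and 3 lower at 2 weeks. The 3 satellite cell markers summed to 29.8 to 56.9, 29.9 to 34.3 and 21.1 to 30.4 CPM, the 4 tendon markers to 74.2 to 240.7, 33.8 to 181.0 and 35.5 to 211.0, and the 5 red blood cell markers to 240.2 to 1023.9, 145.5 to 755.0 and 91.9 to 129.7. The part of any of these in the changes of laminins and integrins was not tested.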

How the data were processed

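RNA was isolated from tibialis anterior with TRI Reagent and sequenced from stranded mRNA libraries, 4 WT mice per age. The authors deposited raw read counts per Ensembl gene. Per the labels' processing notes the tools were bcl2fastq 2.17.1.14, cutadapt 1.10, STAR 2.5.3a and HTSeq 0.6.1p1 with build mm10, while the paper's methods name GRCm39. The strand setting of the counting is not given in the sources used here, so reads of overlapping genes may be shared or lost. Per-sample columns not used numbered 0. Depth was 63018968 to 123449246 counts per library, and intervals cover counting error only.

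Gene names, exon lengths and G and C content come from GENCODE vM39, which holds 51477 of the 55450 identifiers. In all, 23 of the 37 members were matched to RefSeq promoters by symbol. Counts were scaled by TMM, and filterByExpr left 19276 genes, which were tested in a single edgeR 4.0.16 quasi-likelihood fit of all 12 libraries (limma 3.58.1, R 4.3.3), with Benjamini-Hochberg adjustment and a threshold of 0.05. The authors' own comparison used Cuffdiff, which starts from alignments rather than counts. Ratios used counts plus 0.5 per kilobase of the union of exons. They were compared by two-sided exact permutation tests in scipy 1.17.1, over 24 tests. Trends with G and C content or length were lowess fits (span 0.3) per library. The fit was tested on simulated data with fewer changed genes and a smaller spread between libraries than here. Its error rate in these data was not tested. The 18 pairs of replicates differed by more than sampling noise, so all libraries were counted.

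The individual values of 1 member are not reported here. Members and lists were chosen with earlier results of these data known. Values of every library are given for Lama2, Lama4, Lama5, Lamb1, Lamb2, Lamc1, Itga7, Itga6, Itga5, Itga4 and Itgb1, and for the 3 largest rises and the 3 largest falls among members past the threshold in each interval. The alternatives were total count scaling, DESeq2 1.42.0 and its size factors, no filter on low counts, a stricter filter (10 counts or more in each library), a block for the replicate number, fits to the 8 libraries of the ages compared, trends removed, each library left out and, for ratios and shares, 5 counts added or the longest transcript. Running them for the lists of partners was chosen after seeing the data. Same-numbered mice of different ages deviated together with correlations of -0.142 to 0.284, of which 2 of 12 were above 0.1. The labels tie no number to a litter or a day, so numbers were not taken as pairs.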

Additional observations from a re-analysis of the deposited data

Results flagged for a closer look

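Within a group of 4 libraries, 1 library stood apart by Dixon's criterion in 7 of the 108 groups of member and age examined, where chance alone gives about 5.4. Lama1 was 0.858 CPM in E18.5 replicate 3, against 0.349 to 0.411 in the others, and 0.0335 CPM in replicate 1 at 2 weeks, on 2 counts. Lamb3 was 8.68 CPM in E18.5 replicate 4, against 6.62 to 6.96. Itgav was 62.3 CPM in E18.5 replicate 1, against 36.9 to 40.7, and 40.3 CPM in replicate 3 at 2 weeks, against 37.1 to 37.6. Itgae was 2.31 CPM in replicate 4 at 2 weeks, against 1.1 to 1.17. Itgb1 was 696 CPM in E18.5 replicate 1, against 433.8 to 475.9.

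For 11 members the change to 2 weeks differed from the change after it at an adjusted p under 0.05 (edgeR quasi-likelihood test of the difference). The log2 difference was 3.17 for Lamb2, 2.47 for Lama5, 2.42 for Itga3, 2.37 for Itgb4, 1.68 for Itga7, 1.04 for Itga5 and 0.99 for Itga1. It was -3.48 for Lama1, -1.63 for Itgal, -1.52 for Itgb3 and -1.35 for Lamb3. With the trend in G and C content removed the differences of Itga3 (1.01, adjusted p = 0.0529, edgeR), Itgb4 (0.78, adjusted p = 0.0788) and Itga7 (0.40, adjusted p = 0.247) no longer passed. Those of Itga1 and Itga5 were lost in most fits that left out 1 library, that of Itgal without replicate 1 or 2 at 2 weeks or replicate 2 at 7 weeks, and that of Itgb3 without replicate 3 or 4 at 2 weeks.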

How the results depend on the processing

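With total count scaling the change to 2 weeks turned sign for Lama3 (-0.16), Lamc1 (-0.91), Itga1 (-0.39), Itga2b (-0.93) and Itgb6 (-0.25). The change from E18.5 to 7 weeks did so for Lama3 (-0.06), Itga7 (-0.30), Itga1 (-1.18) and Itgb7 (-0.15). None of these changes passed in both fits. Under TMM scaling those of Lamc1 (0.01) and Itga2b (0.00) to 2 weeks and of Itga1 (0.08) over the whole period did not pass. With the trend in G and C content removed the change to 2 weeks turned sign for Lamc1 (-0.59) and Itga2b (-0.50). The difference between intervals did so for Itga5 (-0.27), and again none passed in both fits. Without that trend the ratio of Lama4 to Lama5 passed after 2 weeks (-1.04), and the ratios of Itga7 to Itga6 (0.13) and to Itga4 (0.51) no longer passed to 2 weeks. The cause was not tested. A further 99 sign changes concerned estimates that passed in neither fit.

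The number of members that passed after 2 weeks, 12, ran from 7 to 13 with 1 library left out, and was 7 without replicate 1 or replicate 2 at 2 weeks. Calls over all genes dropped there too. In the full fit 2609 of 19276 genes rose and 2687 fell after 2 weeks. Without replicate 1 at 2 weeks 1548 of 19871 rose and 1924 fell, and without replicate 2 at 2 weeks 1691 of 19894 rose and 2014 fell. The number of members ran from 20 to 25 for the change to 2 weeks, from 23 to 27 over the whole period and from 8 to 12 for the difference between intervals. With the replicate block 25, 12, 26 and 13 members passed in these comparisons, in the order to 2 weeks, after it, whole period and difference. Among the ligands, the falls after 2 weeks numbered 1, but 6 with total count scaling and 4 with the length trend removed. They numbered 3 with the replicate block and 2 with DESeq2 or the trend in G and C content removed. Over all genes the falls numbered 5392 with total count scaling, 3126 with the length trend removed and 2709 with the replicate block. With the trend in G and C content removed they numbered 3571, and with DESeq2 3124 of 22351 genes. With 4 mice an age no exact permutation test of a ratio can go below p = 0.0286.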
